A study of Mus musculus with 4 samples.

Results

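The DDX3 and eIF2 gamma genes, 5 paralogs with parts in translation initiation, were followed in cultured mouse pachytene spermatocytes. They are the 3 mouse DDX3 genes (X-linked Ddx3x, Y-linked Ddx3y and autosomal D1Pas1) and the 2 genes of the gamma subunit of eIF2 (X-linked Eif2s3x and Y-linked Eif2s3y). They were chosen by name, as the complete set of these paralogs among the genes listed, and they make up 5 of the 23420 genes with a value. Pachytene spermatocytes of wild-type (WT) male C57BL/6 mice of 23 weeks were isolated by FACS with a DNA dye and cultured for 24 h with DMSO (Ctrl, 2 libraries) or with 10 μM AZ20 (2 libraries), an inhibitor of the ATR kinase. ATR signals from the unpaired axes of the X and Y chromosomes, and the comparison asks what becomes of transcripts from these chromosomes when that signal is inhibited after meiotic sex chromosome inactivation (MSCI) has been set up. Cells of a mouse were divided between the conditions, so that replicate 1 and replicate 2 are pairs. All 4 libraries came from cultured cells, and AZ20 was used at 1 dose and 1 time.

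DDX3 proteins are DEAD-box RNA helicases, which use ATP to open RNA structure and help ribosomes to start on messages with structured leaders. Ddx3x and Ddx3y descend from the same gene of the ancestral sex chromosome pair, whereas D1Pas1 (also called Pl10) is a retrocopy of Ddx3x, an intronless copy made by reverse transcription, and is expressed in the testis. eIF2 is a trimer of alpha (Eif2s1), beta (Eif2s2) and gamma subunits. Its gamma subunit binds GTP and the initiator tRNA, and the Y-linked copy is known for its part in the proliferation of spermatogonia. In pachytene spermatocytes the X and Y are silenced by MSCI while the autosomes remain active, and retrocopies on autosomes are widely thought to stand in for silenced X-linked parents.

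In the GENCODE M21 annotation of GRCm38, Ddx3x lies at chrX:13280970-13294052 on the plus strand with 17 exons, and Ddx3y at chrY:1260771-1286629 on the minus strand, also with 17 exons. D1Pas1 lies at chr1:186967416-186970627 on the plus strand as 1 exon. Eif2s3x lies at chrX:94188707-94212862 on the minus strand and Eif2s3y at chrY:1010543-1028847 on the plus strand, each with 12 exons. Over the coding sequence, D1Pas1 was 87.4% identical to Ddx3x and Ddx3y was 84.6% identical to it, while Ddx3y and D1Pas1 were 80.8% identical. The encoded DDX3 proteins differed from that of Ddx3x at 35 aligned residues in D1Pas1 and at 58 in Ddx3y. The Eif2s3 copies were 86.3% identical in coding sequence and their proteins, of 472 residues each, differed at 10.

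The stretches around the codons of the helicase motif that names the DEAD-box family and around the first GTP-binding motif (G1) of eIF2 gamma are shown because they let the reads of the copies be told apart. They come from the GENCODE transcripts and run 5′ to 3′ over coding bases 985 to 1104 of Ddx3x, 982 to 1101 of Ddx3y and D1Pas1 and 94 to 213 of both Eif2s3 copies. Capitals mark bases that differ from the X-linked copy.
Ddx3x: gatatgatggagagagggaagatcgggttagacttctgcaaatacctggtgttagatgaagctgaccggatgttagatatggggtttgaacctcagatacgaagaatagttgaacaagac
Ddx3y: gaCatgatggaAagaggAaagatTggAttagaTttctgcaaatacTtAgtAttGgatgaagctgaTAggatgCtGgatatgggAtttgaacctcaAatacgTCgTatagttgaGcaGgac
D1Pas1: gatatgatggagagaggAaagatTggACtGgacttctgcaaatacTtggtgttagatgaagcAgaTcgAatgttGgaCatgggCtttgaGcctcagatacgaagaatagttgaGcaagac
Eif2s3x: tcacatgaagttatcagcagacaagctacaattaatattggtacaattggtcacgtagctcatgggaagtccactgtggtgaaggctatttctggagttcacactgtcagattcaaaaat
Eif2s3y: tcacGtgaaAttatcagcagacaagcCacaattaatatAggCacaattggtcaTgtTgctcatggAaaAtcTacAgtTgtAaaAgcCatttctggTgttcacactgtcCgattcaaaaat
Within these stretches Ddx3y differed from Ddx3x at 21 bases, D1Pas1 from Ddx3x at 14 and Eif2s3y from Eif2s3x at 17. The longest run of transcript bases shared by any of the copies was 51 bases, between Ddx3x and Ddx3y. No 150-base window of a member's transcript occurred in another member. Reads of the 5 genes can thus be separated by sequence, apart from short stretches. Other genes share more with them. Of the 3498 such windows of Eif2s3x, 1201 (34.3%) also occur in Gm2223, a processed pseudogene at chrX:33505661-33507010 that has no value of its own here, and 2297 occur in no other annotated transcript. Ddx3x shared 33 of 4543 windows, mainly with the pseudogene Gm44429 on chromosome 6, and D1Pas1 shared 39 of 3063 with Gm37912, an antisense gene over its start. Ddx3y and Eif2s3y shared none, although Gm4017 and Gm18665 overlap the span of Ddx3y. No strand setting is given in the sources used here, so reads over the start of D1Pas1 cannot be assigned to it or to Gm37912.

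Levels are given as TPM, reads scaled by gene length and by the total of the library, so that levels can be compared between genes. Whole reads behind the TPM values were recovered from them. By these, the depth over all genes was 13858272 and 15729090 reads for the Ctrl libraries, and 20094702 and 18404522 reads for those of AZ20. The pachytene markers Sycp3, a protein of the synaptonemal complex, and Ldhc, a lactate dehydrogenase of germ cells, were at 2061 to 2924 and 5216 to 6178 TPM in the 4 libraries. Their summed list lay between 11310 and 11585 TPM and none of its 10 tested genes was called or had an unadjusted p under 0.05 in limma. H1t, listed as Hist1h1t, which marks mid pachytene, was at 0 in 2 libraries and at most 1.52 TPM. In the study, sorted cells were also stained for the H1T protein to check their purity, which this RNA value does not measure. In the comparison of AZ20 with Ctrl, limma was run on log2(TPM + 1) over genes whose mean TPM passed 1 in either condition. Called means that the change reached 2-fold and the Benjamini-Hochberg adjusted p was below 0.05. Of 10316 genes tested 240 were called (2.33%). Among X-linked genes 216 of 341 were called higher (63.3%), among Y-linked genes 6 of 8 (75%), and among autosomal genes 15 of 9931 were called in either direction (0.151%). In RNA from pooled cells, a change in the share of cells that hold a transcript and a change in its amount per cell cannot be told apart.

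Of the 5 genes, 3 were called higher with AZ20: Ddx3x, Ddx3y and Eif2s3y. D1Pas1 was the most abundant of the 5 in every library and was not called, and Eif2s3x was at or near 0 in every library and fell below the TPM filter, so that 4 of the 5 were tested. The 3 calls stand beside a background of 63.3% of X-linked and 75% of Y-linked genes called higher, so a call in itself does not set these genes apart from the rest of the X and Y.

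**Figure D1:**
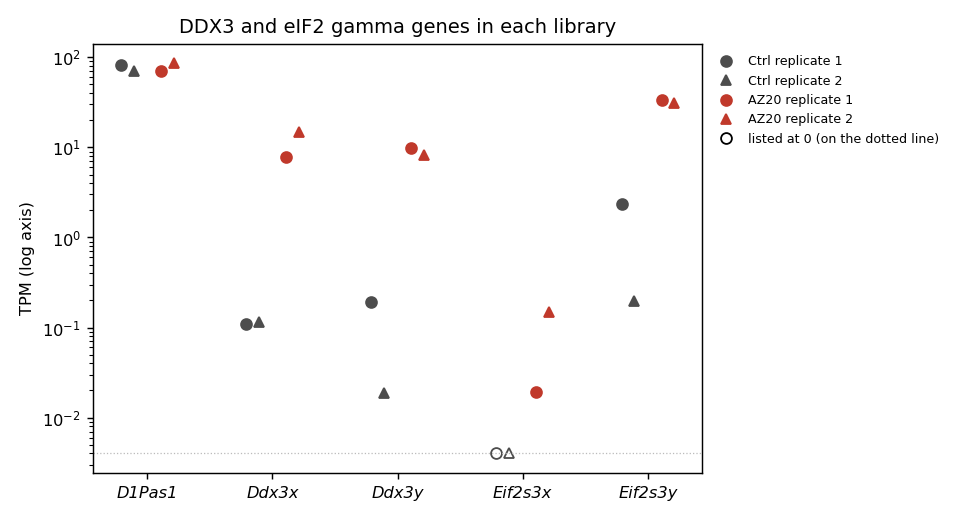
TPM of the 5 genes in each library on a log axis, with circles for replicate 1, triangles for replicate 2, grey for Ctrl and red for AZ20. D1Pas1 lies between 69.9 and 85.5 TPM in all 4 libraries, the AZ20 points of Ddx3x, Ddx3y and Eif2s3y lie above all their Ctrl points, and Eif2s3x reaches at most 0.149 TPM or is at 0 (open symbols on the dotted line).

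D1Pas1, the autosomal DDX3 gene, was at 82.4 and 71.4 TPM in Ctrl replicates 1 and 2 (2669 and 2646 reads) and at 69.9 and 85.5 TPM in AZ20 replicates 1 and 2 (3265 and 3602 reads). The groups overlapped, with the lowest and the highest value both in AZ20. The change was 0.01 on the log2(TPM + 1) scale (SE 0.19, 95% interval -0.45 to 0.47), with a Benjamini-Hochberg adjusted p of 0.995 from limma. The interval leaves room for changes of that size either way. Within pair 1 the AZ20 value was 0.849 times that of Ctrl (95% interval 0.806 to 0.894) and within pair 2 it was 1.20 times (1.14 to 1.26). These intervals are exact binomial ones and cover counting error alone, and the pairs went in opposite directions by more than counting error.

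Ddx3x, the X-linked DDX3 gene, was at 0.108 and 0.114 TPM in Ctrl, which stands for 5 and 6 reads. With AZ20 it was at 7.91 and 14.9 TPM, from 526 and 892 reads. Both AZ20 libraries lay far above both Ctrl libraries, and the AZ20 libraries differed from each other more than the Ctrl libraries did. The change was 3.42 on the log2(TPM + 1) scale (SE 0.35, Benjamini-Hochberg adjusted p = 0.00215 in limma), a scale that understates changes of genes so low in Ctrl. By TPM it was 73.0 times higher in pair 1 (95% counting interval 31.1 to 226) and 131 times higher in pair 2 (59.8 to 357). The call was lost without AZ20 replicate 1 (adjusted p = 0.0902), without AZ20 replicate 2 (0.0791) and without Ctrl replicate 2 (0.0511), by limma with Benjamini-Hochberg adjustment.

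Ddx3y, the Y-linked DDX3 gene, was at 0.192 and 0.0187 TPM in Ctrl, from 9 reads and 1 read, and at 9.72 and 8.31 TPM in AZ20, from 656 and 506 reads. The groups did not overlap, and the change was 3.18 on the log2(TPM + 1) scale (SE 0.29, Benjamini-Hochberg adjusted p = 0.00112 in limma). In TPM the ratio was 50.6 in pair 1 (95% counting interval 26.5 to 111). In pair 2, where Ctrl held 1 read, it was 445 with an interval of 79.5 to 17603. The call was lost without either AZ20 library (limma, Benjamini-Hochberg adjusted p = 0.0943 without replicate 1 and 0.0813 without replicate 2), where limma called no gene of the whole table (924 and 799 genes had an unadjusted p under 0.05).

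The X and Y copies of DDX3 were at like levels in AZ20. The log2 ratio of Ddx3x to Ddx3y, with 1 TPM added to each, was -0.11 and 0.13 in Ctrl and -0.27 and 0.77 in AZ20. The ratios overlapped between the conditions (exact permutation test over libraries, two-sided p = 1), and with 2 libraries against 2 that test cannot give a p below 0.333. In AZ20 replicate 1 the Y copy was the higher and in replicate 2 the X copy was, so no order between them held in both libraries.

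Summed over the 3 genes, DDX3 transcripts were at 82.7 and 71.5 TPM in Ctrl and at 87.5 and 109 TPM in AZ20. D1Pas1 made up 99.6% and 99.8% of this sum in Ctrl and 79.9% and 78.7% in AZ20. Its share was lower in both AZ20 libraries, by 20.5 percentage points in the mean (99.7% ± 0.126 against 79.3% ± 0.843, SD, n = 2 each, exact permutation p = 0.333, the smallest that 2 against 2 libraries allow). Ddx3x took up 9.04% and 13.7% and Ddx3y 11.1% and 7.65% of the sum in AZ20. D1Pas1 itself did not pass the test, and its lower share came with the higher X- and Y-linked values in the same sum. Even with AZ20 the autosomal copy was the most abundant of the 3 DDX3 transcripts, at 5.75 to 8.83 times Ddx3x.

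**Figure D2:**
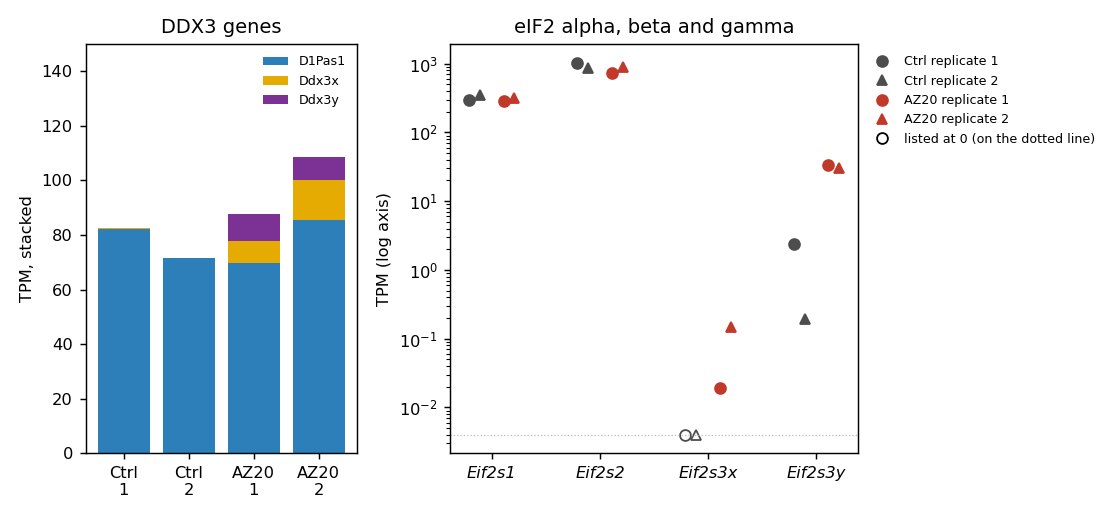
On the left, TPM of the 3 DDX3 genes stacked in each library on a linear axis from 0. On the right, TPM of the eIF2 subunit genes on a log axis, with symbols as in the plot of the 5 genes. The D1Pas1 part of the bars ends between 69.9 and 85.5 TPM, and the Eif2s3y points of AZ20 remain far below those of Eif2s1 and Eif2s2.

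Eif2s3y, the Y-linked eIF2 gamma gene, was at 2.35 and 0.196 TPM in Ctrl (42 and 4 reads) and at 33.6 and 30.8 TPM in AZ20 (864 and 715 reads). Both AZ20 libraries were higher than both Ctrl libraries, and the AZ20 values were closer to each other than the Ctrl values were. It rose by 4.05 on the log2(TPM + 1) scale (SE 0.46, Benjamini-Hochberg adjusted p = 0.00381 in limma), the highest change of the 4 members tested on that scale. The order turned with a pseudocount of 0.1, where the changes were 5.24 for Eif2s3y, 5.70 for Ddx3x and 5.61 for Ddx3y, and likewise with 0.01 and with voom on recovered reads. In TPM it was 14.3 times higher in pair 1 (95% counting interval 10.5 to 20.0) and 157 times higher in pair 2 (61.1 to 578). These intervals did not overlap, a difference that lies in the Ctrl libraries. The call was lost with a pseudocount of 0.1 (limma, Benjamini-Hochberg adjusted p = 0.0541) or 0.01 (0.128), with no filter on TPM (0.0622), and without AZ20 replicate 1 (0.456) or 2 (0.438).

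The summed TPM of round spermatid markers was also higher in Ctrl replicate 1 than in Ctrl replicate 2. The 7 markers, among them the protamine genes Prm1 and Prm2 and the transition protein genes Tnp1 and Tnp2, summed to 366 and 151 TPM in Ctrl and to 773 and 252 TPM in AZ20, and none of the 7 was called or had an unadjusted p under 0.05 in limma. All 7 were above 0 in every library. Replicate 1 was the higher in both conditions. With the replicate number as a block, Prm1 was called higher in AZ20 (change 1.11, limma, Benjamini-Hochberg adjusted p = 0.000766). The part of these cells in the values of the members was not tested. The 8 spermatogonia markers summed to 252 and 331 TPM in Ctrl and 388 and 528 in AZ20, mainly from Dazl, which was higher in AZ20 in both pairs (244 and 309 TPM in Ctrl, 375 and 513 in AZ20) and had an unadjusted p of 0.0150 in limma without being called. Gfra1 was at 0.154 and 0.376 TPM in Ctrl and 1.11 and 0.945 in AZ20, Uchl1 at 7.60 and 20.1 in Ctrl and 11.2 and 13.8 in AZ20, Zbtb16 reached at most 0.269 TPM and Dmrt1 was at 0 in all 4 libraries. Kit was at 0.191 and 0 TPM in Ctrl and 0.106 and 0 in AZ20. Nanos3 was at 0.272 and 0.713 in Ctrl and 0.754 and 0 in AZ20, and Sall4 reached at most 0.180. The sum, mainly of Dazl, does not measure the share of spermatogonia, and the part of such cells in the AZ20 values was not tested. The 8 Sertoli cell markers summed to at most 0.905 TPM, the 6 Leydig cell markers to at most 2.31, the 4 peritubular myoid markers to at most 4.60, the 4 macrophage markers with a value to at most 1.28, and the 4 markers of early prophase to at most 1.01 TPM.

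Eif2s3x, the X-linked eIF2 gamma gene, was at 0 in both Ctrl libraries, where 3 reads would have stood for 0.0829 and 0.0725 TPM. It was at 0.0192 and 0.149 TPM in AZ20, from 1 read and 7 reads. Its highest value was thus a few reads, and no test of its change was made because it did not reach a mean TPM of 1 in either condition. Without that filter, limma gave a change of 0.11 on the log2(TPM + 1) scale (Benjamini-Hochberg adjusted p = 0.852). Ranked by mean TPM in AZ20 it had rank 533 of 1034 X-linked genes, of which 196 had at least 100 reads in each AZ20 library.

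The eIF2 gamma pair therefore differed from the DDX3 pair in how the copies stood to each other. With AZ20, the X-linked copy made up 0.0571% and 0.481% of the summed eIF2 gamma TPM, while Ddx3x made up 44.9% and 64.2% of the sum of Ddx3x and Ddx3y. The log2 ratio of Eif2s3x to Eif2s3y, with 1 TPM added to each, was -1.74 and -0.26 in Ctrl and -5.08 and -4.79 in AZ20, without overlap (exact permutation p = 0.333, the smallest possible here). With 0.01 TPM added instead, the ratios overlapped, at -7.88 and -4.36 in Ctrl and -10.2 and -7.60 in AZ20 (exact permutation p = 0.667). Since Eif2s3x was at 0 in Ctrl, its Ctrl ratio is set by the value added. The authors kept uniquely aligned reads, so reads that match Gm2223 equally well would not count for Eif2s3x, and how many of its other windows align uniquely in the genome was not tested. The size of the ratio rests on few reads of Eif2s3x.

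The other subunits of eIF2 were abundant throughout. Eif2s1 (alpha) was at 296 and 344 TPM in Ctrl and 284 and 311 in AZ20, and Eif2s2 (beta) at 1035 and 869 in Ctrl and 724 and 896 in AZ20. Neither was called, with changes of -0.10 (SE 0.16) and -0.23 (SE 0.17) on the log2(TPM + 1) scale and Benjamini-Hochberg adjusted p of 0.915 and 0.779 in limma. The summed TPM of the gamma genes was 0.353% and 0.0323% of the mean of Eif2s1 and Eif2s2 in Ctrl, and 6.66% and 5.12% of it in AZ20 (exact permutation p = 0.333, the smallest possible here). Against Eif2s1, the lower of the 2 subunit genes, it was 0.793% and 0.0568% in Ctrl and 11.8% and 9.94% in AZ20. Counted by uniquely aligned reads, transcripts of the gamma subunit were thus the scarcest of the trimer in all 4 libraries, with or without AZ20. Reads of Eif2s3x that match Gm2223 equally well would be missing from the gamma sum, and their number was not tested. No autosomal gene for this subunit is among the genes followed here.

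Genes that work with eIF2 or carry its name were, like alpha and beta, not called. Of the 12 genes listed (Eif2s1, Eif2s2, the GTPase activator Eif5, the subunit-joining factor Eif5b, the 5 subunits of the exchange factor eIF2B, the assembly factor Cdc123, and Eif2a and Eif2d), 12 were tested and none was called by limma, also on recovered reads with voom. An unadjusted p under 0.05 was found for 1 of them. Their median change was -0.01 on the log2(TPM + 1) scale, beside 0.07 over all genes tested, with Eif2b3 lowest at -0.46 and Eif5 highest at 0.41. Eif5 was at 269 and 257 TPM in Ctrl and at 324 and 381 in AZ20, a difference that did not pass the test (Benjamini-Hochberg adjusted p = 0.490). Of 33 other translation initiation factors 29 were tested and none was called by limma or on recovered reads with voom, with a median change of -0.03 and 1 unadjusted p under 0.05. That one was Eif1ax, the X-linked gene of eIF1A, at 2.25 and 0 TPM in Ctrl and 11.8 and 10.5 in AZ20, with a change of 2.75 and a Benjamini-Hochberg adjusted p of 0.0550 in limma. In the fit blocked by replicate it was called (limma, Benjamini-Hochberg adjusted p = 1.96e-08). Its changes in pairs 1 and 2 were 1.98 and 3.53, and that p rests mostly on variance pooled over genes. Its autosomal counterpart Eif1a was at 155 and 145 TPM in Ctrl and 162 and 161 in AZ20. The next largest change of that list was -0.38, for Pabpc2, a poly(A)-binding protein gene, and it was not called. Of autosomal genes tested 0.151% were called, and 945 of all 10316 genes tested had an unadjusted p under 0.05. The lack of calls thus does not set the autosomal genes of these lists apart.

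Other DEAD-box helicases were not called either, by limma or on recovered reads with voom. Of 33 listed, 32 had a value and were tested, 2 had an unadjusted p under 0.05, and the median change was 0.05. Among all 10316 genes tested 945 had such a p, and 0.151% of autosomal genes were called. The lack of calls thus does not set this list apart. Ddx4, the germ cell helicase also called Vasa, was at 647 and 648 TPM in Ctrl and 610 and 641 in AZ20, several times the summed DDX3 level. The largest changes were those of Ddx59, at 4.98 and 5.76 TPM in Ctrl and 2.44 and 2.26 in AZ20 (change -0.93), and Ddx10, at 18.5 and 17.8 in Ctrl and 25.5 and 35.5 in AZ20 (change 0.70). In limma their Benjamini-Hochberg adjusted p were 0.263 and 0.393.

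**Figure D3:**
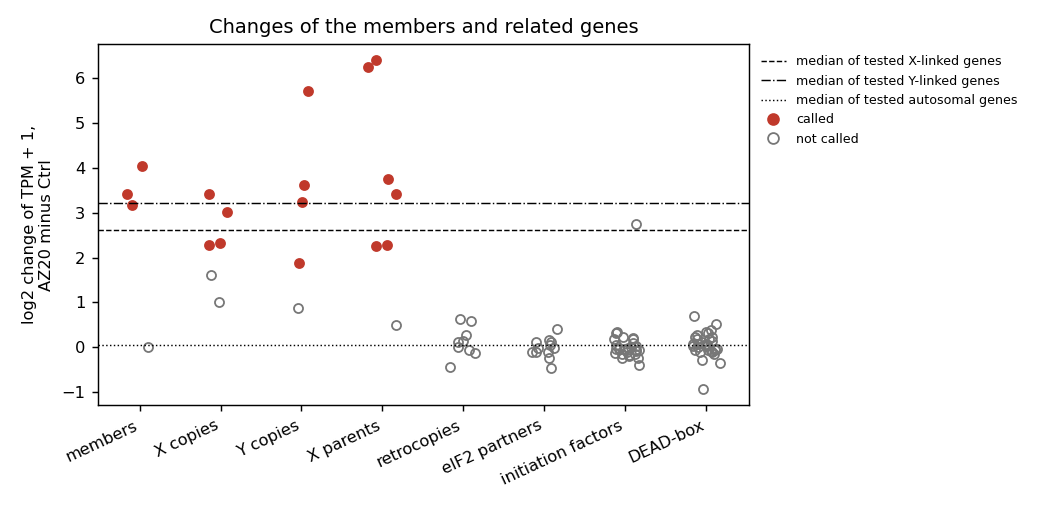
Change of each tested gene on the log2(TPM + 1) scale, AZ20 minus Ctrl, for the members and 7 lists of related genes, with called genes filled in red and others open. Dashed, dash-dotted and dotted lines give the medians of tested X-linked (2.61), Y-linked (3.21) and autosomal (0.06) genes, and the called genes all lie in the members and in the lists of X- and Y-linked genes.

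Against the other genes of the sex chromosomes, the called members lay within the range of changes of their own chromosome. The median change of the 341 X-linked genes tested was 2.61 (quartiles 1.46 and 4.01), and Ddx3x had rank 122 of them. Among the 8 Y-linked genes, with a median of 3.21, Eif2s3y had rank 2 and Ddx3y rank 5 on the log2(TPM + 1) scale. D1Pas1 had rank 5643 of 9931 autosomal genes, whose median change was 0.06 (quartiles -0.12 and 0.29).

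Other genes with copies on both sex chromosomes were taken from a list chosen by name. Of 7 other X copies 6 were tested and 4 were called higher, beside 63.3% of all X-linked genes tested. They were Kdm5c (a histone demethylase), Usp9x (a deubiquitinase), Zfx (a zinc finger transcription factor) and Rbmx (an RNA-binding protein). Their changes were 2.27, 2.34, 3.01 and 3.42 on the log2(TPM + 1) scale. Of 8 other Y copies 5 were tested, which are 5 of the 8 Y-linked genes tested in all (75% called higher). Of these 5, 4 were called higher: Uba1y (a ubiquitin-activating enzyme) by 1.89, Usp9y by 3.25, Zfy1 by 3.61 and Zfy2 by 5.72. The median change was 2.30 over the X copies and 3.25 over the Y copies. Kdm6a (change 1.01), Uba1 (1.62) and Uty (0.88) were not called, although all were higher in AZ20 in both pairs. Uba1 was called with the replicate number as a block (limma, Benjamini-Hochberg adjusted p = 0.00356). Kdm6a was at 0 in both Ctrl libraries and at 0.980 and 1.04 TPM in AZ20, where adding 1 TPM limits its change. The study, with DESeq2, counted Kdm6a (Utx) as upregulated and detected its nascent RNA in most treated cells. Sry and Rbmy were at 0 in all 4 libraries.

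The balance of X and Y copies in AZ20 was not the same from one pair of genes to the next. Eif2s3x had the lowest X share, at 0.0571% and 0.481%. For Zfx it was 7.35% and 11.1% of the sum with Zfy1 and Zfy2, and for Usp9x 29.5% and 35.4%. For Kdm6a against Uty it was 46.1% and 50.9%, for Uba1 against Uba1y 43.1% and 61.8%, and for Ddx3x 44.9% and 64.2%. Kdm5c made up 96.1% and 99.7% of the sum with Kdm5d, whose TPM was 0.151 and 0.0139, and Rbmx made up 100% of the sum with Rbmy, which was at 0. Both Kdm5d and Eif2s3x were thus near 0 with AZ20 while their counterparts rose. Only uniquely aligned reads were counted, and whether those of Rbmy align uniquely in the genome was not tested. Its value of 0 therefore does not show that it was silent. Shares over 2 libraries are descriptions, and no test between pairs of genes was run.

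Genes next to the members on the chromosome, in the order of GENCODE protein-coding genes with a value, showed the same unevenness. Next to Ddx3x, Usp9x was called at 3.98 and 4.16 TPM in AZ20, whereas Med14, Cask and 1810030O07Rik stayed under 1 TPM in both AZ20 libraries and Nyx and Gpr34 were at 0. Next to Eif2s3x, Zfx on one side was at 6.81 and 9.38 TPM in AZ20 and was called. Beyond Zfx, AU015836 was at 0.183 and 0.762 and was not tested, and Pdk3 was at 2.34 and 1.49 and was not called. On the other side Klhl15 was at 1.40 and 0.333, and Apoo (10.2 and 12.8) and Maged1 (3.80 and 4.10) were called. Eif2s3x, at 1 and 7 reads in AZ20, thus lay among genes of which some were called higher, beside 63.3% of all X-linked genes tested. On the Y, Eif2s3y lies between Kdm5d (0.151 and 0.0139 TPM) and Uty (1.14 and 1.01), followed by Ddx3y, Usp9y (9.50 and 7.60) and Zfy2 (70.9 and 62.7). In Ctrl, the libraries of replicate 1 and 2 held 16 and 2 reads of Zfy2, 14 and 0 of Uty and 12 and 0 of Zfy1, as against 42 and 4 of Eif2s3y and 9 and 1 of Ddx3y, while Usp9y and Uba1y had 0 reads in both. Next to D1Pas1, Rrp15 was at 119 to 156 TPM and Spata17 at 69.0 to 112 TPM over the 4 libraries, and neither was called.

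**Figure D4:**
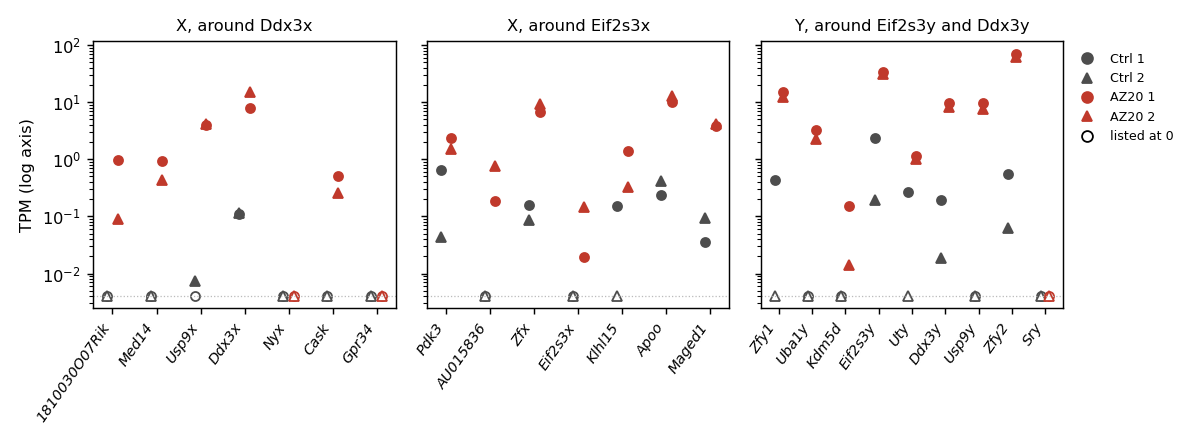
TPM on a log axis of the 3 nearest protein-coding genes with a value on each side of Ddx3x, of Eif2s3x and of the Y-linked members, in chromosomal order, with spacing not to scale. Grey symbols are Ctrl and red symbols AZ20, circles replicate 1 and triangles replicate 2, and open symbols on the dotted line are values of 0. Eif2s3x stays at 0.0192 and 0.149 TPM in AZ20 between Zfx and Klhl15.

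Other autosomal retrocopies of X-linked genes varied widely in level. In Ctrl, 7 of 10 were at 46.0 TPM or more in both libraries, whereas Rbmxl2 was at 4.11 and 5.30, Utp14b at 0.398 and 0.174 and G6pd2 at 0. Of the 10 copies 9 were tested and none was called by limma or with voom (1 unadjusted p under 0.05, for Rbmxl2), with a median change of 0.13. Of the 7 tested X-linked parents 6 were called higher, and the median change of the 7 was 3.42. Beside these counts, 0.151% of all autosomal genes tested were called and 63.3% of X-linked genes were called higher, so the counts do not set these lists apart from their chromosomes. The abundant retrocopies included Cetn1, a centrin, at 5521 to 6838 TPM, Rpl10l, a ribosomal protein, at 897 to 1194, Pgk2, a glycolytic enzyme, at 73.2 to 120, and Pdha2, a pyruvate dehydrogenase subunit, at 178 to 210. With AZ20 their X-linked parents ranged from Pdha1 and Timm8a1, at 0 in all libraries, and Pgk1, at 2.14 and 1.73 TPM and not called, to Cetn2 at 67.7 and 102 and Prps1 at 142 and 149 TPM. As a share of parent and copy, the autosomal transcript held 89.8% and 85.2% for D1Pas1 with Ddx3x in AZ20, against 99.9% and 99.8% in Ctrl. For Prps1l1 with Prps1 it was 59.3% and 45.3% in AZ20 and 99.7% and 99.5% in Ctrl, and for Rbmxl2 with Rbmx 47.0% and 38.0% in AZ20 and 100% and 97.0% in Ctrl. For Cetn1 with Cetn2 it was 98.8% and 98.2% in AZ20 and 100% in both Ctrl libraries. For Utp14b with Utp14a it was 24.4% and 7.61% in AZ20 and 42.9% and 62.0% in Ctrl, so there the X-linked transcript was the more abundant one in Ctrl replicate 1.

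For each member tested, the 3 genes nearest in level over the 4 libraries were found by the Euclidean distance of log2(TPM + 1). Those of Ddx3x were X-linked: Rbmx (distance 0.24), Fam122b (0.30) and Uxt (0.41). For Ddx3y they included Usp9y (0.28), next to it on the Y, and the X-linked Yipf6 (0.29). Those of Eif2s3y were the X-linked H2bfm (0.72), Gm14920 (0.75) and Cul4b (0.92). Those of D1Pas1 were Tomm70a (0.12), Eif4g2 (0.14) and Ttc29 (0.15), on chromosomes 16, 7 and 8. With 4 libraries, nearness says that levels are alike and nothing more.

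The promoters of the members are shown because copies with like proteins and unlike levels can be set side by side in them. They hold 250 bases before and 50 after each RefSeq gene start in GRCm38.p6, and all 5 members were found. They run 5′ to 3′ on the strand of the gene, at chrX:13280772-13281071 (plus) for Ddx3x, chr1:186967166-186967465 (plus) for D1Pas1, chrX:94212602-94212901 (minus) for Eif2s3x and chrY:1010345-1010644 (plus) for Eif2s3y. Capitals mark matches, on either strand, to the GC box (GGGCGG), the TATA box (TATAAA) and the core of the ZFX/ZFY site (AGGCCT).
Ddx3x: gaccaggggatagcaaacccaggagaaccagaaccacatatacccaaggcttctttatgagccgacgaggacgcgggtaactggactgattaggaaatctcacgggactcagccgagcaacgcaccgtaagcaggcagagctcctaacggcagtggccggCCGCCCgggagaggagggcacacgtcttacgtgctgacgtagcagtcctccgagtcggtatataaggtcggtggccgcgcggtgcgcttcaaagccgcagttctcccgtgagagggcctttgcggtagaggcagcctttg
D1Pas1: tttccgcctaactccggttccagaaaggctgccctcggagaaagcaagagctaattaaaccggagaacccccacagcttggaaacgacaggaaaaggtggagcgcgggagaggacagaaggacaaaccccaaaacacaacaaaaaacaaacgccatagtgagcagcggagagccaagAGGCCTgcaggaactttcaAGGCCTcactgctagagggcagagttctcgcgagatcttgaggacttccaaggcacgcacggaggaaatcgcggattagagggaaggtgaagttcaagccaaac
Eif2s3x: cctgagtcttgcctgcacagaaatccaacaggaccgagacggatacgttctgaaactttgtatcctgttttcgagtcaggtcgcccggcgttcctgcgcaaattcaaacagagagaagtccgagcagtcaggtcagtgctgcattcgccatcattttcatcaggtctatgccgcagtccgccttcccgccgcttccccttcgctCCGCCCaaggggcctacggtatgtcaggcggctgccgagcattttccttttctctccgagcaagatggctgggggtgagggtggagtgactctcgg
Eif2s3y: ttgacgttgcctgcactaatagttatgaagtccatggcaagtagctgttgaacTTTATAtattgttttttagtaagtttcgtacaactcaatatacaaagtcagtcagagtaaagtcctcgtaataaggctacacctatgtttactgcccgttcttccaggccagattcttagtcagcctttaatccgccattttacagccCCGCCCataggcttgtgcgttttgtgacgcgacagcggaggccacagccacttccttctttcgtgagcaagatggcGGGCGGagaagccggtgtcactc
The GC box was found 1 time in Ddx3x, 1 time in Eif2s3x and 2 times in Eif2s3y, and occurs in 35.6% of 32817 promoters of this length. The letters TATAAA were found 1 time in Eif2s3y, at -197 from the gene start, and occur in 13.6% of promoters. Other spellings of a TATA box, such as the tatataag in the Ddx3x promoter, were not searched. The ZFX/ZFY core was found 2 times in D1Pas1 and occurs in 10.3%. Ddx3y, not shown, held none of these, and held the short CRE core (TGACG) 3 times. The same letters were found 1 time in Ddx3x and 2 times in Eif2s3y, and 20.8% of promoters contain them at least 1 time. The CCAAT box, the full CRE, the NRF1 site and the ETS core had no match in these windows of the 5 members. The X-linked promoters were richer in G and C (60.0% in Ddx3x and 57.0% in Eif2s3x) and held 25 and 21 CpG. The Y-linked ones held 45.0% and 46.7% G and C with 17 and 14 CpG in Ddx3y and Eif2s3y, and D1Pas1 held 53.3% with 15. The median over all promoters was 52.7% with 7 CpG. Promoter sequence was 61.1% identical between the Eif2s3 copies and 56.9% between Ddx3x and Ddx3y over aligned bases, well below the identity of the coding sequence. It was 52.5% between Ddx3x and D1Pas1 and 47.9% between Ddx3y and D1Pas1. What unrelated promoters give in such an alignment was not tested. A match of these letters is a description and does not show that a factor binds.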

How the data were processed

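RNA of FACS-isolated pachytene spermatocytes was measured in 4 libraries, 2 Ctrl (DMSO) and 2 AZ20. The authors trimmed reads (Trimmomatic 0.39 in the submitters' processing notes), aligned them to GRCm38 (STAR 2.5.4b), kept unique alignments, counted them per gene (featureCounts 2.0.1) and deposited TPM, computed from the counts. The 92 lines without a gene name were left out.

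TPM were analysed as log2(TPM + 1) with limma 3.58.1 in R 4.3.3 (intensity trend, filter at a mean TPM of 1 in at least 1 condition, Benjamini-Hochberg adjustment over all 10316). Shares and ratios were compared by exact two-sided permutation over libraries. Whole reads were recovered from TPM, using that a gene has 1 length, a whole number of bases, in every library. This gave whole reads for each of the 16857 genes above 0, although reads and length could still both be short by the same factor. In a test on simulated data, 93.1% of 16409 genes came back exactly. Recovered lengths of the members (1771 to 4640 bases) were close to their transcripts, and that of D1Pas1 equalled its 3212 bases. Intervals from reads and the floor of 3 reads cover counting error only.

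The study's methods say that cells of a mouse were divided between conditions. As a check of the pairing, the deviation of each gene from its group mean was compared between the libraries that share a number (correlation 0.23 for autosomal and 0.18 for X-linked genes). The number was left out of the fit and was used as a block in an alternative. With 4 libraries the blocked fit leaves little spread within a gene, so its p-values rest mostly on variance pooled over genes. Other alternatives were pseudocounts of 0.1 and 0.01, scaling to the same autosomal total, quantile normalization, no filter or one at 5 TPM, no trend, voom on recovered reads, and leaving out each library.

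The members and lists were chosen with earlier results of these data known. Named were all members, genes of the eIF2 partner, X-Y and retrocopy lists, the called genes and 2 largest changes of the other lists, and the 3 genes nearest to each member, of which 1 is not reported here. Genomic neighbours were added after values were seen. Sequences came from GENCODE M21 and RefSeq (GRCm38.p6), read with Python 3.11.15.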

Additional observations from a re-analysis of the deposited data

How the results depend on the processing

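Ddx3x, Ddx3y and Eif2s3y were higher in AZ20 under every alternative run. Leaving out a library gave changes of 3.004 to 3.84 for Ddx3x, 3.07 to 3.29 for Ddx3y, 3.31 to 4.79 for Eif2s3y and -0.13 to 0.15 for D1Pas1, and 0 to 3 members called. Genes of the lists called were 13 of 99 tested, and 0 to 10 without a library. Eif2s3y was no longer called with a pseudocount of 0.1 (change 5.24), with 0.01 (5.53) or with no filter on TPM (4.05). The change of D1Pas1, never called, turned its sign with quantile normalization (-0.0638), which moves the median of all genes by -0.14, and with voom on recovered reads (-0.0124), and was -0.09 without Ctrl replicate 2 and -0.13 without AZ20 replicate 2. The cause of these shifts was not tested.

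With the replicate number as a block, for which the pairing was checked, the changes were 3.42 (Ddx3x), 3.18 (Ddx3y), 4.05 (Eif2s3y) and 0.01 (D1Pas1), and no call of a member changed. Among the lists 15 genes were called, with Eif1ax and Uba1 added, as was the spermatid marker Prm1, and 447 genes of the table were called instead of 240. Within the pairs, the difference of the D1Pas1 share, AZ20 minus Ctrl, was -19.8 and -21.2 percentage points, and the eIF2 gamma ratio 6.31 and 5.09 points higher. Against the lower of alpha and beta the ratio differed by 10.5 points instead of 5.70. The change of the X to Y log2 ratio of Ddx3, 0.24, was -0.40 with a pseudocount of 0.01 and -0.28 to 0.76 without a library, the lowest without AZ20 replicate 2. That of Eif2s3, -3.94, was -2.76 with 0.01, where the conditions overlapped. Levels of Ddx3x, Ddx3y and Eif2s3x in Ctrl rest on 0 to 9 reads, so the size of their ratios is limited by depth.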
